A study of Rattus norvegicus with 19 samples.

Results

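Immediate early genes (IEGs) are genes whose transcription rises within minutes of a stimulus, from proteins already present in the cell. In neurons, calcium, cAMP and ERK signals reach their promoters through CREB, which binds the cAMP response element (CRE), and through the serum response factor, which binds the CArG box. Their transcripts are short-lived, so their level in a tissue follows recent events, and in the paraventricular nucleus (PVN) of the hypothalamus Fos is widely used as a mark of neurons activated by stress or by a fluid or blood pressure challenge.

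The genes described here are 9 well-known IEGs, chosen by name and Ensembl identifier, and 7 of them were measured among the 30560 genes of the count table. These were Fos (ENSRNOG00000008015), Egr1 (ENSRNOG00000019422), Arc (ENSRNOG00000043465), Nr4a1 (ENSRNOG00000007607), Jun (ENSRNOG00000026293), Egr2 (ENSRNOG00000000640) and Btg2 (ENSRNOG00000003300). All 7 were among the 17432 genes whose normalized count averaged more than 5 in the 19 libraries. Junb (ENSRNOG00000042838) and Dusp1 (ENSRNOG00000003977) were not analysed here.

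The libraries were of polyadenylated RNA from bilateral PVN punches of rats aged 14 weeks that differed in strain and sex and in no assigned treatment, and the rats were 4 males and 5 females of the Wistar stock and 5 males and 5 females of the SHR strain. SHR is an inbred strain in which hypertension develops spontaneously, and Wistar is the normotensive, outbred stock it was compared with. All rats carried a blood pressure telemetry probe, implanted under ketamine and xylazine with perioperative gentamicin and carprofen. After a recovery period they were stunned and decapitated after a recording made in a separate room, which for females was in dioestrus. Each library is 1 animal, with a replicate number in its label. Total counts lay between 44943945 and 58793511 per library. Levels are given as CPM (counts scaled to the size of the library, corrected by TMM, the trimmed mean of M-values), so values of 1 gene can be compared between libraries, but not between genes, whose lengths differ. In a punch of tissue, fewer cells of a type and less RNA per cell cannot be told apart. The identifiers of PVN and cell type markers are not paired with symbols in the files, so the label of the tissue was not checked against its markers.

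The products of these genes have different roles. Fos and Jun are subunits of the AP-1 transcription factor. Egr1 and Egr2 are zinc finger transcription factors, and Nr4a1 is an orphan nuclear receptor. Btg2 is an antiproliferative protein that acts with the CCR4-NOT complex in mRNA decay. Arc is a postsynaptic protein that takes part in the removal of AMPA receptors from synapses.

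RefSeq's promoter table for the GRCr8 assembly, which comes from an inbred BN rat and is a later build than the Rn7 to which the authors aligned reads, holds 6 of the 9 genes, of which 4 were measured. The bases before the start site of these 4 are shown because 3 of the genes varied together between animals, as described below, and because Egr1 and Egr2 share 1 CArG box and 1 CRE core in letters and position. Each is the 250 bases upstream of the start, on the gene's own strand, with matches to a CArG box, to the CRE (TGACGTCA) or to its 5-letter core (TGACG, or CGTCA on the other strand, also where it lies within the CRE) in capitals.

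Egr1, GRCr8 chr18:26736828-26737077, plus strand: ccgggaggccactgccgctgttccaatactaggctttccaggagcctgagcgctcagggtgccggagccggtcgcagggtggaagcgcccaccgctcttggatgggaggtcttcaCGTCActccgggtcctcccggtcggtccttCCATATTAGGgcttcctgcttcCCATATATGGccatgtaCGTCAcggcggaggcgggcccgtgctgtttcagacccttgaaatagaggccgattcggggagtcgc

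Egr2, GRCr8 chr20:21054442-21054691, minus strand: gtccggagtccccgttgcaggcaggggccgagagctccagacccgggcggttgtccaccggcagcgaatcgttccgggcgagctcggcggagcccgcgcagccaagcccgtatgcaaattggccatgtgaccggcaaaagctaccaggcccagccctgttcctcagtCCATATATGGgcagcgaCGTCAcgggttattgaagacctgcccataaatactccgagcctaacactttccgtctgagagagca

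Nr4a1, GRCr8 chr7:134259888-134260137, plus strand: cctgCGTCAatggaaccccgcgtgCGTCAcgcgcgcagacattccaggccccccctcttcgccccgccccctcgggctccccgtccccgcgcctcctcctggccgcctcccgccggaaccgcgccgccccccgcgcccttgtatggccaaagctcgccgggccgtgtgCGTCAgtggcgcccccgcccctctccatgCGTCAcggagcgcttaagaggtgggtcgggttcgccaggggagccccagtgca

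Btg2, GRCr8 chr13:48087691-48087940, minus strand: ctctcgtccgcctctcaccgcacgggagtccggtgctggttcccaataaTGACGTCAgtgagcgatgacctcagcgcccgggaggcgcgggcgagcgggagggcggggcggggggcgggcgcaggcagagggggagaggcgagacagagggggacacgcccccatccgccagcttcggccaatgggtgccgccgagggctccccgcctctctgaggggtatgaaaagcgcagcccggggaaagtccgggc

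Egr1 held 2 CArG boxes and 2 CRE cores, and Egr2 held 1 of each. The box ending at position -74 from the start (CCATATATGG) had the same letters and the same position in both, and in both a CRE core lay at positions -66 to -62. Nr4a1 held 4 CRE cores and no CArG box, and Btg2 held a full CRE at positions -201 to -194. Of 33469 promoters of this length in the table, 1.5% held a CArG box, 1.59% a full CRE and 18.2% a CRE core. A CArG box and a CRE core together were present in 0.230%. These are matches of letters and not measured binding sites, and a link between them and the variation between animals was not tested.

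Fos RNA was highest in SHR males and lowest in Wistar females. Relative to the mean it was most even in SHR males, where the SD was 14.4% of the mean, beside 24.5% in Wistar females. The 5 SHR males measured 34.5, 41.7, 33.3, 30.3 and 42.1 CPM, and the 4 Wistar males 12, 21.3, 35.1 and 27.8 CPM. The 5 Wistar females measured 7.75, 13, 15.2, 11.6 and 10.2 CPM. The 5 SHR females measured 42.0, 20.0, 29.8, 19.1 and 6.51 CPM, so that 1 group spanned both the level of SHR males and a level below every Wistar female. Group means were 36.4 ± 5.25 CPM (SD, n = 5) in SHR males, 24.0 ± 9.81 CPM (SD, n = 4) in Wistar males, 23.5 ± 13.2 CPM (SD, n = 5) in SHR females and 11.6 ± 2.83 CPM (SD, n = 5) in Wistar females. Each group overlapped in range with the next in this order, whereas all SHR males lay above all Wistar females, which differ from them in both strain and sex.

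Egr1 followed the same order of groups. Its values were 59.0, 72.3, 60.6, 57.2 and 59.5 CPM in SHR males and 18.1, 46.5, 80.7 and 57.2 CPM in Wistar males. Wistar females had 20.3, 29.8, 26.4, 19 and 16 CPM, and SHR females had 78.4, 46.5, 42.6, 32.4 and 10.9 CPM. The highest value of all was in Wistar male replicate 4 and the lowest in SHR female replicate 5. The mean was 61.7 ± 6.04 CPM (SD, n = 5) in SHR males and 22.3 ± 5.63 CPM (SD, n = 5) in Wistar females, which did not overlap, and neighbouring groups in the order overlapped.

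Nr4a1 was again highest in SHR males, with 17.5, 23.9, 17.4, 16.7 and 20.7 CPM, and lowest in Wistar females, with 6.52, 11, 8.76, 6.06 and 4.49 CPM. Wistar males had 7.63, 13, 23.2 and 19.5 CPM and SHR females 16, 12.7, 16.2, 8.45 and 5.14 CPM. All 5 SHR males lay above all 5 SHR females, the nearest values being 16.7 and 16.2 CPM.

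Btg2 differed from the first 3 genes in the order of the males. Wistar males had 9.23, 17.1, 25.6 and 22.2 CPM and SHR males 15.8, 16.3, 15.8, 14.4 and 18.6 CPM, so SHR males lay within the range of Wistar males. In females, the values were 8.29, 13, 12.2, 9.0 and 7.69 CPM in Wistar and 12.6, 11.6, 13.6, 10.3 and 6.65 CPM in SHR. SHR males and SHR females, with means of 16.2 ± 1.5 CPM (SD, n = 5) and 10.9 ± 2.69 CPM (SD, n = 5), are neighbours in the order and did not overlap. The other neighbours overlapped.

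Jun separated the strains more than the sexes. In males, the values were 59.7, 69.8, 68.4 and 60.2 CPM in Wistar and 82.5, 82.4, 99.2, 87.8 and 97.3 CPM in SHR, with no overlap. In females, they were 58.2, 73.1, 77.4, 68.7 and 60.1 CPM in Wistar and 89.8, 83.3, 85.4, 84.4 and 52.2 CPM in SHR. SHR females therefore lay above all Wistar females except replicate 5, which had the lowest Jun of the 19 libraries. The order of means was 89.8 ± 8.03 CPM (SD, n = 5) in SHR males, 79.0 ± 15.2 CPM (SD, n = 5) in SHR females, 67.5 ± 8.24 CPM (SD, n = 5) in Wistar females and 64.5 ± 5.32 CPM (SD, n = 4) in Wistar males, and neighbours overlapped in range.

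Arc had its highest mean in Wistar males, 10.5 ± 2.67 CPM (SD, n = 4), and its lowest in Wistar females, 7.25 ± 1.19 CPM (SD, n = 5). Its values lay between 7.17 and 13.6 CPM in Wistar males, between 7.79 and 11.7 in SHR males, between 5.58 and 8.70 in Wistar females and between 4.67 and 13.8 in SHR females, and all neighbouring groups overlapped. Egr2 had the lowest counts of the 7 genes, from 0 counts, in Wistar female replicate 5, to 78 counts, in SHR male replicate 2, and all 19 of its counts were even, as 73.9% of all counts from 1 to 100 in the table were. This 0 leaves room for up to 3 counts, or 0.0591 CPM, in that library, as far as counting error goes, and for 2 times as many if both reads of a pair were counted. Group means of Egr2 were 0.671 ± 0.446 CPM (SD, n = 5) in SHR males, 0.549 ± 0.412 CPM (SD, n = 4) in Wistar males, 0.343 ± 0.444 CPM (SD, n = 5) in SHR females and 0.235 ± 0.234 CPM (SD, n = 5) in Wistar females, with overlap between all groups.

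**Figure D1:**
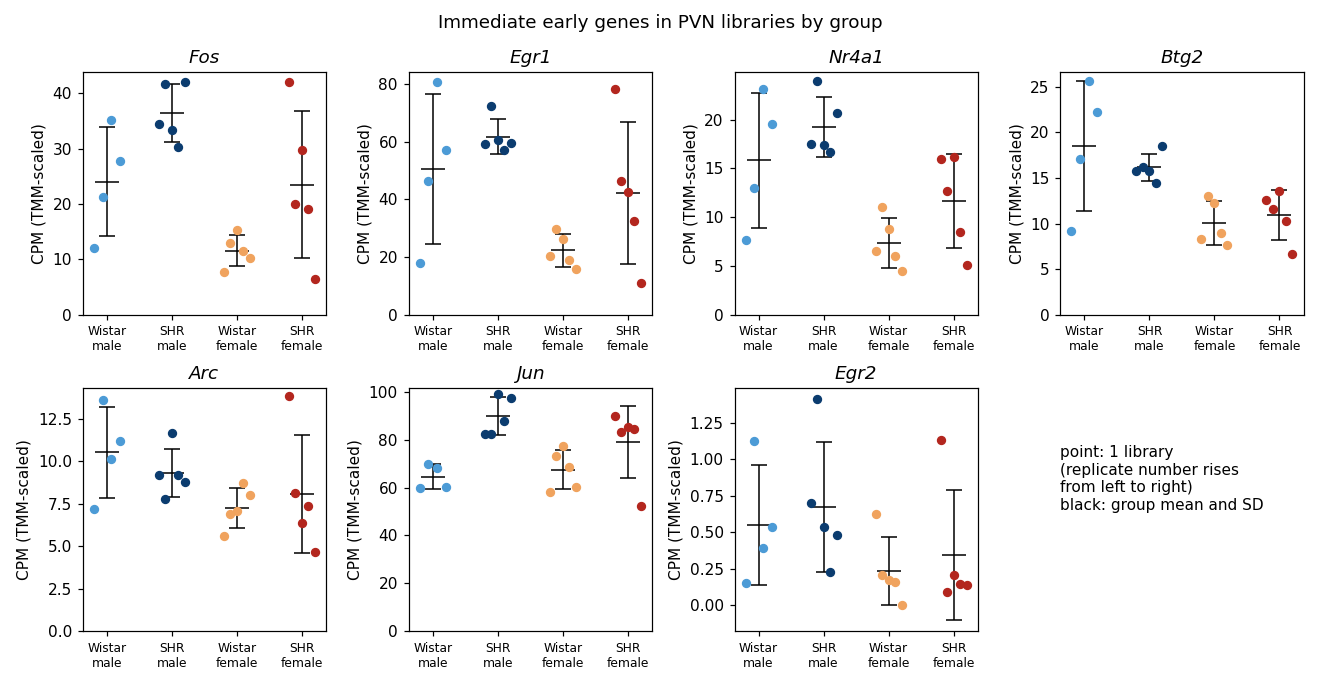
Level of each gene in CPM (TMM-scaled, linear axis) for each of the 19 libraries by group, with points in order of replicate number and the group mean and SD in black. SHR males lie above all Wistar females for Fos, Egr1, Nr4a1, Btg2 and Jun, and SHR females and Wistar males spread widely for Fos and Egr1.

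The comparison of SHR with Wistar males asks which transcripts differ with the hypertensive strain in males. Jun was the only one of the 7 to pass, and it was higher in SHR. Its mean was 89.8 ± 8.03 CPM (SD, n = 5) in SHR males against 64.5 ± 5.32 CPM (SD, n = 4), so that it was 1.39-fold higher (log2 fold change 0.47, SE 0.08, 95% interval 0.31 to 0.64, adjusted p = 0.00280 in the quasi-likelihood test of edgeR, Benjamini-Hochberg adjusted over every gene tested). This is 1 of 7 genes, in a comparison in which 12% of 17461 genes passed in either direction and 5.14% passed as higher in SHR. It was also the only one of the 7 whose groups did not overlap with SHR higher, which 7.43% of all genes showed. Fos had a log2 fold change of 0.59 (95% interval 0.09 to 1.09, edgeR adjusted p = 0.111) and did not pass. Fos and Jun were the 2 genes with an unadjusted p under 0.05, as 28.6% of all genes had. The log2 fold changes were 0.28 for Egr1, 0.27 for Nr4a1 and 0.29 for Egr2, with edgeR adjusted p-values from 0.489 to 0.768. For Arc and Btg2 they were -0.18 and -0.21 (adjusted p = 0.491 and 0.562). The median over the 7 genes was 0.28, beside -0.00364 over all genes tested.

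Single libraries decided some of these calls. Without Wistar male replicate 4, which had the highest Fos of its group, the log2 fold change of Fos was 0.83 and passed (edgeR adjusted p = 0.0350). Without Wistar male replicate 2, which had the lowest Btg2, that of Btg2 was -0.43 and passed as lower in SHR (edgeR adjusted p = 0.0471). Jun passed in each of the 9 fits that left out 1 library, and it did not pass with Bonferroni adjustment (edgeR adjusted p = 0.698).

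In females, all 7 genes had a positive log2 fold change of SHR against Wistar, and none of them passed the threshold. Fos had 1.01 (95% interval 0.20 to 1.83, edgeR adjusted p = 0.191), Egr1 0.91 (0.08 to 1.74, adjusted p = 0.250) and Nr4a1 0.66 (-0.03 to 1.34, adjusted p = 0.313). Values for Jun, Egr2, Arc and Btg2 were 0.22, 0.54, 0.15 and 0.12, with edgeR adjusted p from 0.447 to 0.804. In this comparison 2.32% of 17404 genes passed. An unadjusted p under 0.05 was reached by 2 of the 7 genes and by 17% of all genes. Groups without overlap and with SHR higher were seen for 0 of the 7 and for 2.21% of all genes. The DESeq2 Wald test also called 0 of the 7. The median log2 fold change was 0.54, beside -0.00314 over all genes.

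SHR female replicate 5 bore on this comparison. Without it, the log2 fold changes were 1.26 for Fos and 1.16 for Egr1, and both passed (edgeR adjusted p = 0.0335 and 0.0460). Without SHR female replicate 1, which had the highest Fos and Egr1 of its group, they were 0.70 and 0.56 (adjusted p = 0.367 and 0.461). In the size of its deviations over all genes tested, SHR female replicate 5 did not stand apart, and its total count, 55264420, was the highest of the SHR females. Its median absolute deviation from the group mean was 0.115 on the log2 scale, within the range of 0.0776 to 0.172 over the 19 libraries, and 5 libraries had a larger one.

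Between the sexes in Wistar, 6 of the 7 genes had lower means in females, and none passed after adjustment. The log2 fold changes of females against males were -1.06 for Fos (95% interval -1.66 to -0.45), -1.18 for Egr1 (-1.93 to -0.43) and -1.10 for Nr4a1 (-1.82 to -0.39). They were -0.89 for Btg2 (-1.48 to -0.30) and -0.54 for Arc (-0.94 to -0.13). These intervals of single genes excluded 0, and each of these 5 genes had an edgeR adjusted p of 0.909. The DESeq2 Wald test called 0 of the 7 too. This comparison called 0.0629% of 17490 genes after adjustment, and 4.08% of all genes had an unadjusted p under 0.05, against 5 of the 7 here. Of these 5, Fos, Egr1, Nr4a1 and Btg2 varied together between the same animals, as described below, so the 5 are not independent results. Jun and Egr2 had log2 fold changes of 0.07 and -1.23 (95% interval -0.14 to 0.27 and -2.99 to 0.53). The groups overlapped for all 7. For Fos, Egr1, Nr4a1 and Btg2, replicate 2 was the only Wistar male within the range of the females. Of all genes, 0.818% had groups without overlap and females lower.

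In SHR, all 7 genes had lower means in females. Btg2 had a log2 fold change of -0.56 (95% interval -0.89 to -0.23, edgeR adjusted p = 0.181) and Nr4a1 of -0.72 (-1.25 to -0.18, adjusted p = 0.230). Both separated the sexes without overlap, which 1.82% of all genes did with females lower. Nr4a1 and Btg2 varied together between the same animals, as described below, so they are not independent results. None of the 7 passed with edgeR, where 0.0694% of 17285 genes did, and 2 of the 7 had an unadjusted p under 0.05, as 14.9% of all genes had. With the DESeq2 Wald test, Btg2 passed (log2 fold change -0.56, adjusted p = 0.0262). For Fos, Egr1, Egr2, Arc and Jun the log2 fold changes were -0.63, -0.55, -0.98, -0.20 and -0.18, with edgeR adjusted p from 0.388 to 0.711. The strain and sex comparisons share libraries, since each group enters 1 comparison of each kind.

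Whether the strain effect differed between the sexes was tested as their interaction in a fit of all 4 groups. None of the 7 genes passed, as none of 17432 genes did (0% called with edgeR, and 13.4% at an unadjusted p under 0.05, against 0 of the 7). The DESeq2 Wald test called 48 genes, with 0 of the 7 among them. The strain effect in females minus that in males was 0.43 for Fos on the log2 scale (95% interval -0.58 to 1.45), 0.64 for Egr1 (-0.47 to 1.75), and -0.24 for Jun (-0.60 to 0.11), with edgeR adjusted p = 0.691, 0.581 and 0.510. The intervals of the other 4 genes also included 0.

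**Figure D2:**
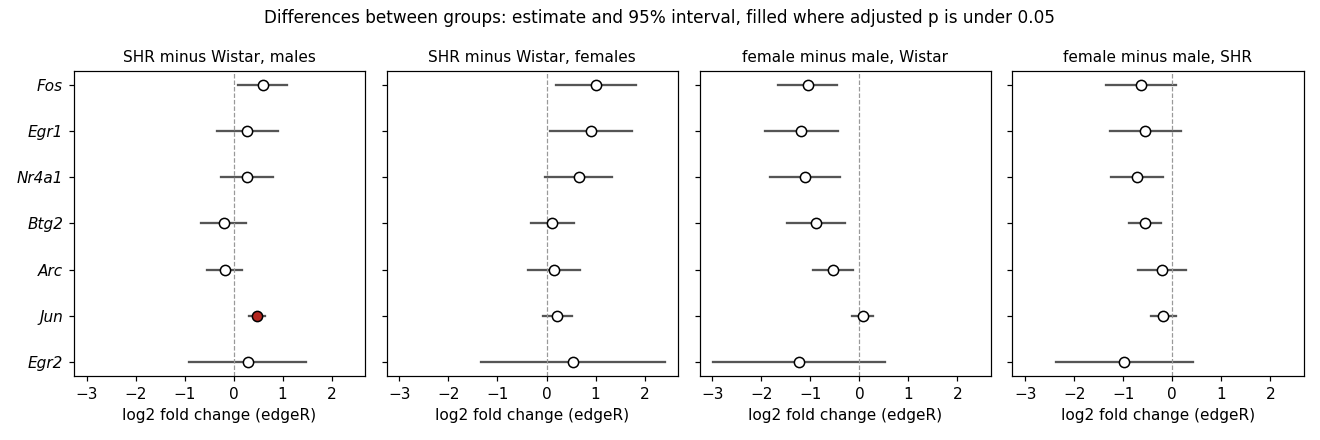
Log2 fold change of each gene in the 4 comparisons, as the edgeR estimate with its 95% interval, filled where the adjusted p is under 0.05. Jun in males is the only filled point, and the estimates of all genes but Jun lie below 0 in both comparisons of females with males.

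Much of the variation of these genes lay between animals of the same group. The SD of log2 CPM within groups was 0.638 for Fos, 0.711 for Egr1 and 0.557 for Nr4a1, against a median of 0.177 over all genes. The share of genes with a smaller SD was 90.2% for Fos, 92.5% for Egr1, 86.9% for Nr4a1, 78.7% for Btg2, 76.9% for Arc and 56.5% for Jun. For Egr2 it was 99.4%, at counts low enough that counting error adds to the spread.

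This spread was uneven between groups. In SHR males, the SD of log2 CPM was 0.208 for Fos, 0.134 for Egr1 and 0.131 for Btg2, beside a median of 0.136 over all genes in that group. In SHR females, it was 1.01, 1.05 and 0.404, beside a median of 0.157. The highest library of SHR females had 7.21 times the Egr1 of the lowest, and that of SHR males 1.26 times. Wistar males, with SDs of 0.664 for Fos and 0.922 for Egr1, also spread more than SHR males. The difference in spread between groups was not tested.

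**Figure D3:**
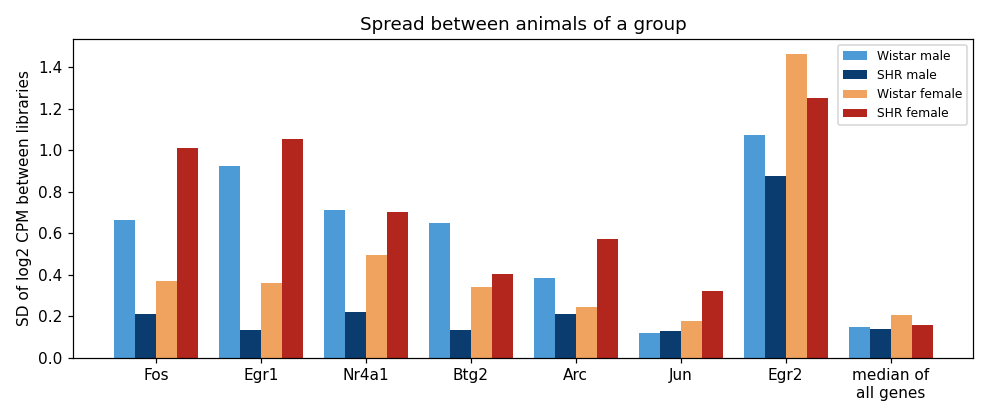
SD of log2 CPM between the libraries of each group, for the 7 genes and as the median over all 17432 genes. Bars of SHR males are the lowest of the 4 groups for every gene but Jun, and those of Fos and Egr1 reach 1.01 and 1.05 in SHR females.

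Animals of a group differed in several of these genes at once. To show this, the mean of its group was subtracted from each log2 CPM value. In SHR female replicate 5, all 7 genes lay below the group mean, with deviations of -1.61 for Fos and -1.70 for Egr1. SHR female replicate 1 lay above it in all 7, with 1.08 for Fos, 1.15 for Egr1 and 0.87 for Arc. Wistar male replicate 2 was below its group in all 7 genes, with -0.89 for Fos and -1.29 for Egr1, and so was SHR male replicate 4, with smaller deviations of -0.25 and -0.10.

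**Figure D4:**
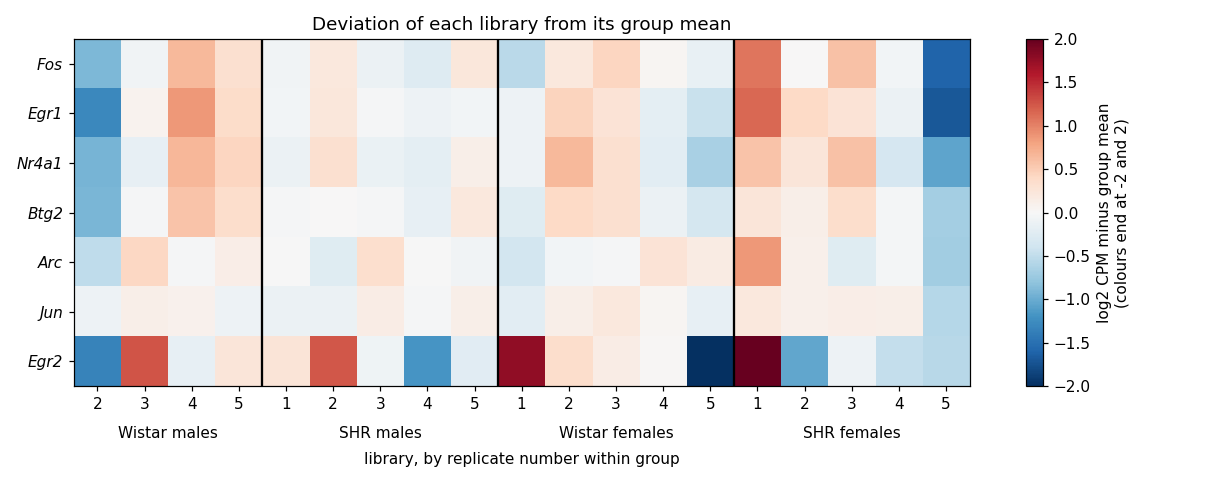
Deviation of each library from the mean of its group (log2 CPM, colour) for the 7 genes, with libraries ordered by group and replicate number. The rows of Fos, Egr1, Nr4a1 and Btg2 change colour together, with the deepest blue outside Egr2 in SHR female replicate 5 and Wistar male replicate 2.

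Whether pairs of these genes vary together was measured as Pearson's r and Spearman's rho of the deviations over the 19 libraries, since groups of 4 or 5 animals are too few for a correlation within each. Of the 21 pairs, all had a positive r, and 10 passed a permutation test in which the values of 1 gene were shuffled within groups (100000 resamples, two-sided, Benjamini-Hochberg adjusted over the 21 pairs). With rho, 9 pairs passed. The median r of the 21 pairs was 0.664, and that of all pairs of genes tested was -0.001.

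The pairs among Fos, Egr1, Nr4a1 and Btg2, singled out after their values were seen, were the 6 with the highest r. Fos and Egr1 had r = 0.931 (rho = 0.80, permutation adjusted p = 0.000770 and 0.00161). Nr4a1 and Btg2 had the highest r, 0.941 (rho = 0.926, permutation adjusted p = 0.000105 for each), where the unadjusted p of 1e-05 is the smallest the resamples can give. For Egr1 and Nr4a1, r was 0.922 (rho = 0.926), and for Egr1 and Btg2 it was 0.891 (0.912). Fos had r = 0.873 (rho = 0.832) with Nr4a1 and r = 0.860 (0.888) with Btg2. These 4 pairs had permutation adjusted p-values for r from 0.000105 to 0.000770. Without the 2 libraries farthest from the median of the first gene, r of the 6 pairs lay between 0.777 and 0.925. Of all pairs of genes tested, 0.442% had an r of at least 0.8, the mark that these 6 of the 21 pairs reached.

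The correlations of Jun with these 4 genes rested in part on 1 animal. Its r was 0.794 with Fos (rho = 0.609), 0.736 with Egr1 (0.586), 0.671 with Btg2 (0.586) and 0.646 with Nr4a1 (0.460), with permutation adjusted p-values for r from 0.00570 to 0.0261 and for rho from 0.0199 to 0.102. Without SHR female replicate 5, these were 0.521, 0.429, 0.541 and 0.417, and none of them passed (permutation adjusted p from 0.0625 to 0.177). The 6 pairs of Fos, Egr1, Nr4a1 and Btg2 all passed without this library, with r from 0.827 to 0.924.

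Arc and Egr2 passed with none of the others. Arc had r = 0.665 with Fos (rho = 0.230), 0.664 with Egr1 (0.307) and 0.639 with Jun (0.358), with a permutation adjusted p = 0.0644 for each r. With the replicate number taken out as a block, r of these 3 pairs was 0.634, 0.640 and 0.699 (permutation adjusted p = 0.0316, 0.0223 and 0.00559). They also passed with a linear trend on that number removed. The shuffles within groups ignored the block and the trend, which makes these p-values too small, so no conclusion is drawn from these passes. With CPM of the library total, Arc and Jun passed (permutation adjusted p = 0.0235). With Nr4a1 and Btg2, Arc had r = 0.401 (rho = 0.0614) and 0.450 (0.175). Without the 2 libraries farthest from the median of Fos, its r with Fos was 0.258. Egr2 had r = 0.489 with Egr1 (rho = 0.505) and 0.484 with Nr4a1 (0.514), with permutation adjusted p = 0.0951 and 0.0959 for r, and lower values with the others. At 0 to 78 counts, a correlation of Egr2 is limited by its depth.

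**Figure D5:**
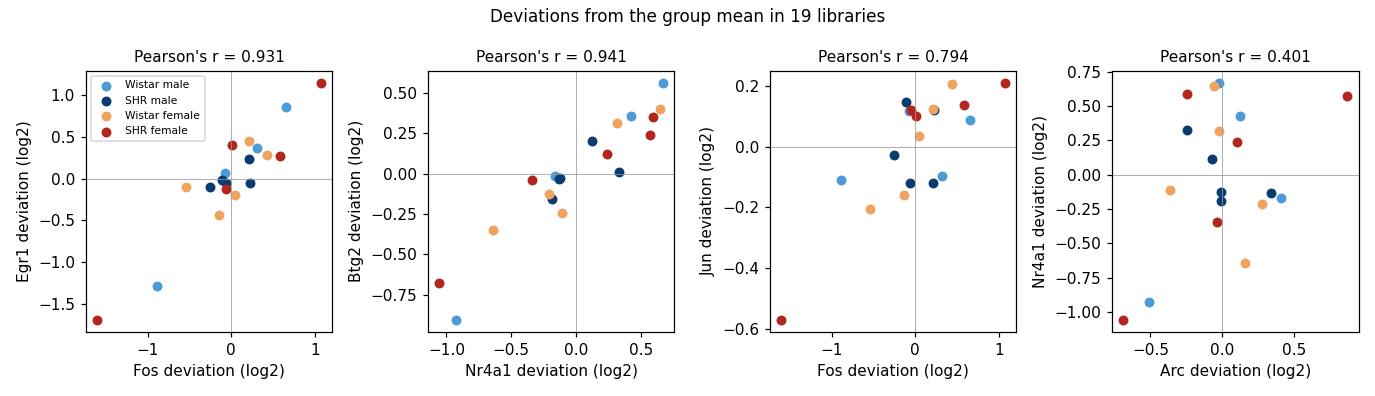
Deviations from the group mean (log2) for 4 pairs of genes in the 19 libraries, coloured by group. Over all libraries together, Fos with Egr1 and Nr4a1 with Btg2 lie along a line, with SHR males, which differ little, near its centre. Fos with Jun has SHR female replicate 5 far from the rest at the lower left, and Arc with Nr4a1 is scattered.

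Set against all other 17431 genes tested, the genes whose deviations were most like those of Fos were Egr1, Nr4a1 and Btg2, which ranked 1, 2 and 3 by r over the 19 libraries. For Egr1, the ranks of Fos, Nr4a1 and Btg2 were also 1, 2 and 3. For Nr4a1, they were 1 for Btg2, 2 for Egr1 and 3 for Fos, and for Btg2 they were 1 for Nr4a1, 2 for Egr1 and 5 for Fos. An r of at least 0.8 with Fos was shared by 7 genes in all. Jun ranked 8, Arc 44 and Egr2 1157 by likeness to Fos. These ranks are a description over libraries of 4 groups and were not tested.

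The median r of the 21 pairs was 0.535 in the 9 Wistar and 0.750 in the 10 SHR libraries, and 0.499 in the 9 male and 0.775 in the 10 female libraries. For Fos and Egr1, r was 0.896 in Wistar, 0.958 in SHR, 0.956 in males and 0.929 in females. For Nr4a1 and Btg2, these were 0.967, 0.936, 0.953 and 0.960. Each of these sets of libraries holds Wistar males or SHR females, in which the SD of Egr1 was 0.922 and 1.05. In SHR males and Wistar females that SD was 0.134 and 0.362, so the sets do not show how closely the genes follow each other in those groups. Jun had r from 0.173 to 0.362 with Fos, Egr1, Nr4a1 and Btg2 in males, and from 0.831 to 0.928 in females, the sex that holds SHR female replicate 5. The values within a strain or sex are given as a description, and differences between them were not tested.

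The deviations were also set beside the replicate number, the total count and the first principal component of all genes after removal of group means, which held 20.0% of the variance. None of the 21 relations of these measures with the 7 genes passed after adjustment (permutation test, Benjamini-Hochberg adjusted p for r of at least 0.195, and for rho of at least 0.228). For Fos, r was -0.172 with the replicate number (rho = -0.0425), -0.420 with the total count (-0.311) and -0.0950 with the component (-0.232), with permutation p = 0.549, 0.183 and 0.640 for r. With the total count, r was -0.451 for Egr1, -0.478 for Arc, -0.353 for Nr4a1 and 0.0903 for Egr2 (permutation p from 0.101 to 0.745). Before adjustment, 4 relations had a p for r under 0.05. Nr4a1 with the component had such a p for rho only (r = -0.347, rho = -0.525, permutation p = 0.163 and 0.0362). Jun had r = -0.576 with the total count (rho = -0.484, permutation p = 0.0281), and r = -0.270 without the 2 libraries farthest from the median. Btg2 had r = -0.389 with it (rho = -0.367, permutation p = 0.0371, r = -0.294 without the 2 farthest). Egr2 had r = -0.552 with the replicate number (rho = -0.559, permutation p = 0.0271) and r = -0.582 with the component (rho = -0.467, permutation p = 0.0304), and without the 2 farthest libraries r = -0.348 and -0.214.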

How the data were processed

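Paired-end reads had been trimmed by the authors (Trimmomatic, Phred 30), aligned to Rn7 (STAR) and summed per Ensembl gene (featureCounts), and the deposited table holds raw counts. Versions, the annotation release and the counting settings are not given in the sources used here. The many even counts leave it unclear whether both reads of a pair were counted. Each of the 19 columns was mapped to an animal by its label.

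The genes, lists and tests were chosen with earlier results of these data known. The symbols of the 9 genes came with their identifiers from outside the files. No table pairs other identifiers with symbols, so lists of other activity-regulated, upstream, stress and cell marker genes that had been drawn up were not used and the 10 genes most like the IEGs could not be named. Correlations were tested over the 21 pairs of the 7 genes measured, where 36 pairs of the 9 genes had been planned.

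Genes with a mean above 5 median-of-ratios counts over the libraries compared were tested in R 4.3.3 with edgeR 4.0.16 (glmQLFit and glmQLFTest, TMM), Benjamini-Hochberg adjustment over all genes and a threshold of 0.05, with only the groups compared in the fit and all 4 for the interaction. Standard errors were derived from the quasi-likelihood F, and 95% intervals from its degrees of freedom. Deviations used log2 CPM with a prior count of 2. Alternatives included DESeq2 1.42.0, Bonferroni adjustment, other scaling and filters, the replicate number as a block and leaving out each library. Counts divided by 2 were added after seeing the data. The other steps used Python 3.11.15, numpy 2.4.6, pandas 2.3.3 and matplotlib 3.10.9. The edgeR and correlation steps were tested on simulated data.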

Additional observations from a re-analysis of the deposited data

Results flagged for a closer look

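Among the 28 combinations of gene and group, 3 held a library farther from the others of its group than Dixon's 95% critical value allows, and chance alone flags about 1 in 20. Egr1 measured 72.3 CPM in SHR male replicate 2, above the other SHR males. Jun measured 52.2 CPM in SHR female replicate 5, below the other SHR females. Egr2 measured 1.13 CPM in SHR female replicate 1, above the other SHR females.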

How the results depend on the processing

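The number of the 7 genes called changed as follows. Between SHR and Wistar males it was 1 in the fit reported and 0 with Bonferroni adjustment, and from 1 to 2 when each library was left out in turn (2 without Wistar male replicate 2 or replicate 4). Between SHR and Wistar females it was 0, and from 0 to 2 with each library left out (2 without SHR female replicate 5). Between SHR females and males it was 0, and 1 with the DESeq2 Wald test. In the sex comparison in Wistar and in the interaction it was 0 under every alternative run. With the replicate number as a block (replicate block), which the labels do not explain, the numbers were 1 and 0 by strain in males and females, 0 in both comparisons by sex and 0 for the interaction. With this block 13 of the 21 gene pairs passed in place of 10, the added pairs being those of Arc with Fos, Egr1 and Jun. The shuffles within groups ignored the block, which makes the p-values of pairs too small, so no conclusion is drawn from the added pairs. Libraries with the same number had correlations of their deviations over all genes from -0.205 to 0.386, so the numbers were not taken as pairs. The highest were those of replicate 5, 0.386 between Wistar males and females and 0.353 between Wistar and SHR females. For this number they were 0.150 between Wistar and SHR males and 0.0832 between SHR males and females. A factor shared by these libraries was not tested. The number of gene pairs that passed was between 6, without SHR female replicate 5, and 12 with each library left out, and the 6 pairs of Fos, Egr1, Nr4a1 and Btg2 passed under every alternative run. Over all genes, 2102 were called by strain in males, against 87 with Bonferroni adjustment and 1203 to 1883 with 1 library left out. In females 403 were called, against 1097 with DESeq2, 1104 with all 4 groups in 1 fit, 40 with Bonferroni adjustment and 174 to 811 with 1 library left out. By sex, DESeq2 called 20 genes in Wistar and 303 in SHR, against 11 and 12 with edgeR. For the interaction the replicate block called 32 and DESeq2 48, against 0.

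Some values changed sign with 1 library left out, none of them called. Over these fits, Egr2 by strain in males lay from -0.18 to 0.89 on the log2 scale, being -0.02 without Wistar male replicate 2 and lowest without SHR male replicate 2. By strain in females it lay from -0.67 to 1.31, and for the interaction from -0.94 to 1.01, both lowest without SHR female replicate 1. The interaction of Egr2 was also negative without Wistar male replicate 3 (-0.34) or Wistar female replicate 5 (-0.07). Arc by strain in females lay from -0.14 to 0.30, and r of Arc and Egr2 from -0.0568 to 0.491, both lowest without SHR female replicate 1. The cause was not tested. Depth limits Egr2 most, whose counts were at most 78.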
